A study of Mus musculus with 2 samples.

Results

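G1/S gene-high cells are the mouse embryonic stem cells (mESCs) that carried the largest share of mRNA from *Ccne1*, *Ccne2*, *Ung*, *Cdc6*, *Mcm3* and *Mcm6*. They were selected on these measured values, as the top 20% of the cells of each library by the UMIs of the 6 genes per 10000 UMIs of the cell. A UMI is the molecular tag that counts 1 captured mRNA. The members were 438 of 2193 cells of wild-type (WT) E14 mESCs and 568 of 2843 cells of the library labelled S1/5 dKO (the dKO-labelled library), or 1006 of 5036 cells in all.

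Both libraries came from E14 cells grown without feeders on gelatin, in serum with LIF, and were prepared with the 10x Chromium 3′ v3 kit. WT is the parental line. S1/5 dKO stands for *Smad1/5* double knockout mESCs made with CRISPR-Cas9, and the labels do not state which knockout clone was used. Each condition had 1 library, so genotype and library cannot be told apart and no test between groups was possible. All intervals below are 95% counting intervals, which cover counting error only. They are exact, except that of a difference of log2 ratios, which is a normal approximation.

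In the members, *Smad1* stood at 13.4 CPM (UMIs of the gene per 1000000 UMIs) in WT and 8.85 CPM in the dKO-labelled library. *Smad5* stood at 6.02 and 9.85 CPM, so its mRNA was higher in the library labelled as its knockout. A 3′ count does not show whether a transcript is intact. Cells had to hold at least 1000 detected genes, at most 5% mitochondrial UMIs and at least 10000 UMIs, and 43 WT cells and 67 cells of the other library fell under the last limit. The median cell held 38987 UMIs in WT and 34856 UMIs in the dKO-labelled library, and the libraries shared 0 cell barcodes. *Pou5f1*, which encodes the pluripotency factor OCT4, was at 1280 CPM in WT members and 1230 CPM in the members of the other library, and each of 12 defining markers of fibroblasts and endoderm had at most 22 UMIs over all members of either library.

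Cells commit to a new round of DNA replication at the G1/S boundary. Cyclin E, encoded by *Ccne1* and *Ccne2*, activates CDK2, and E2F transcription factors switch on the genes that build the replication machinery. CDC6 helps to load the MCM helicase, of which MCM3 and MCM6 are subunits, onto origins of replication, and *Ung* encodes a uracil-DNA glycosylase that clears uracil from DNA. Mouse ES cells are known for a short G1 phase and for cyclin E activity that varies little over the cycle.

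E2F proteins bind short GC-rich sites flanked by a run of T. RefSeq promoter windows (GRCm38.p6, 250 bases before to 50 bases after a start site) were searched on both strands for TTTCCCGC, TTTCGCGC, TTTGCCGC and TTTGGCGC, where a match on one strand can overlap another on the opposite strand. Windows were found for 5 of the 6 genes, all but *Ccne2*, and 3 of the 5 held a match, those of *Mcm3*, *Mcm6* and *Cdc6*, whereas those of *Ccne1* and *Ung* did not. Over all 27025 genes with a window 2.61% held a match, and over the 6430 genes with a window among those with at least 500 UMIs in each library 5.51% did. Of the 15 highest genes outside the rule 11 had a window and 5 of these held a match, while *E2f8*, *Fam111a*, *Mcm10*, *Map7d1* and *AY036118* were among those without. Stretches of the matching rule genes are shown here beside those of the 5, with the match in capitals and each written along the strand of its gene. Their positions are chr1:128359797-128359826 and chr1:128359734-128359763 (*Mcm6*, minus strand), chr1:20820275-20820304 (*Mcm3*, minus strand), chr11:98908002-98908031 (*Cdc6*, plus strand), chr4:126556990-126557019 (*Clspn*, plus strand), chr9:109875501-109875530 (*Cdc25a*, plus strand), chr10:110745230-110745259 (*E2f7*, plus strand), chr12:116405425-116405454 (*Ncapg2*, plus strand) and chr17:56304117-56304146 (*Uhrf1*, plus strand).
Mcm6, first site: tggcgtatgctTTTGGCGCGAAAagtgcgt
Mcm6, second site: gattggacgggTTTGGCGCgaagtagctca
Mcm3: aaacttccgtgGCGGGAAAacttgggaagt
Cdc6: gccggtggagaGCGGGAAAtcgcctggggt
Clspn: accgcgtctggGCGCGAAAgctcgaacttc
Cdc25a: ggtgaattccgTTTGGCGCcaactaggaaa
E2f7: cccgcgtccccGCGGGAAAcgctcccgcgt
Ncapg2: ctggtccgagcGCGGGAAActatgggtctg
Uhrf1: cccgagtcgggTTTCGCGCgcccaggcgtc

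The first *Mcm6* match began 110 bases and the second 47 bases before the annotated start, and the first holds overlapping matches on both strands. The *Cdc25a* match began 67 bases before the start. The matches of *Mcm3* and *Clspn* lay after it, at bases 20 and 22 of the transcript. A second *Mcm3* match, TTTGGCGC at base 39, and a second *Ncapg2* match, 249 bases before the start, are not shown. Of the 358 other genes higher in the members 79.6% had a window, and 14.7% (10.8 to 19.4) of those held a match. For the 100 lower genes these shares were 76.0% and 6.58% (2.17 to 14.7). Among genes with at least 500 UMIs in each library they were 80.6% and 5.51%. Genes without a window were not searched, and the differences were not tested. A match is a description of these letters, not of binding.

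The score that chose the members had a single broad peak in each library, with no gap at the limit. The lowest member scored 8.36 and the highest other cell 8.35 in WT, and 8.94 and 8.93 in the dKO-labelled library. The median of all cells was 6.16 and 6.43, and that of the members 9.75 and 10.3. Within 5% of the limit lay 7.93% of the cells in WT and 7.84% in the other library. The limit cuts a range of a score, and with this few UMIs per cell the score cannot show whether distinct groups lie beneath it. A median member carried 34 UMIs of the 6 genes in WT and 35 in the dKO-labelled library, against 22 and 20 in the other cells. At 10000 UMIs per cell the variance of that count over all cells was 1.58 times its mean in WT and 1.67 times in the other library, where counting alone would give 1.

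**Figure D1:**
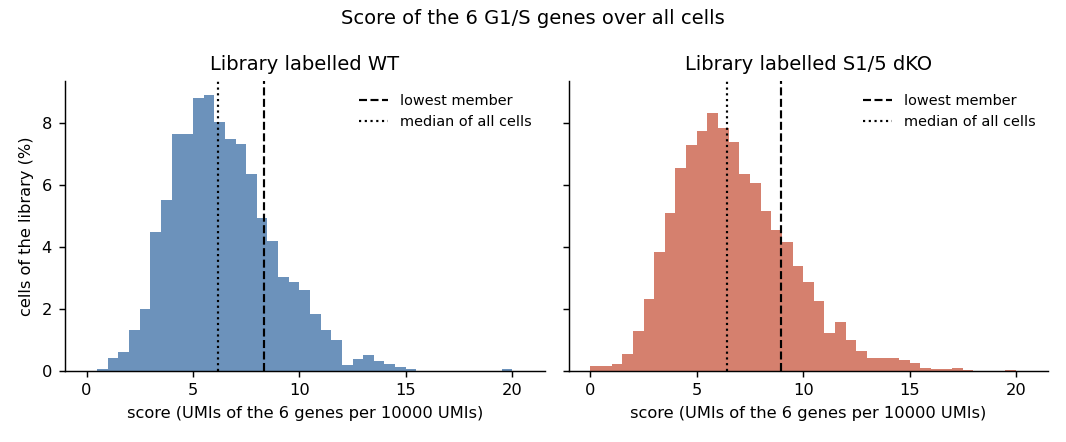
Share of the cells of each library (y axis, %) by score (x axis, UMIs of the 6 genes per 10000 UMIs, in bins of 0.5), with dashed lines at the lowest member and dotted lines at the median. Both distributions are single-peaked, and the limits at 8.36 and 8.94 fall on the falling side of the peak.

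The UMIs of a cell are the divisor of the score, so depth is not independent of the choice. The members held fewer UMIs than other cells. Their median was 34809 UMIs in WT against 40624 in the other WT cells, a ratio of 0.857, and 31846 against 35827 UMIs in the dKO-labelled library, a ratio of 0.889. The share of cells above 2 times the median depth, where droplets with 2 cells would be found, was 2.97% of WT members and 6.84% of other WT cells, and 2.29% and 5.19% in the other library. No doublets had been marked or removed. All 6 genes were detected in 164 WT members and in 225 members of the dKO-labelled library, and at least 5 of them in 385 and 493.

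The values of the 6 genes describe the choice and are no finding. *Ccne2* differed most between members and other cells, at 16.9 CPM in WT members (14.9 to 19.0) and 5.14 in other WT cells, and at 18.9 (17.1 to 20.9) and 5.86 CPM in the dKO-labelled library. *Cdc6* was at 61.7 and 24.3 CPM in WT and at 64.3 and 25.8 CPM in the other library. For *Ung* the levels were 128 and 56.7 CPM, then 144 and 65.1 CPM. *Ccne1*, which supplied 34.3% and 35.2% of the UMIs of the score and so weighed most in it, was at 373 and 184 CPM in WT and at 414 and 196 CPM in the dKO-labelled library. The helicase subunits differed least, *Mcm6* with 159 and 101 CPM, then 161 and 99.4 CPM, and *Mcm3* with 258 and 184 CPM, then 271 and 188 CPM. *Ccne1* lies at chr7:38097984-38107534, *Ccne2* at chr4:11191351-11204779, *Ung* at chr5:114130386-114139323, *Cdc6* at chr11:98907801-98923940, *Mcm3* at chr1:20802968-20820312 and *Mcm6* at chr1:128331590-128359664 of GRCm38. In droplets with too few UMIs for a cell (10 to 100), *Ccne1* was at 173 and 187 CPM and *Ccne2* at 11.3 and 9.19 CPM, levels no lower than in the other cells for *Ccne2*, so free RNA holds these genes too.

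These differences were smaller in UMIs that had not chosen the cells. When the UMIs of each cell were divided at random into 2 equal parts, with the score from one part and the values from the other, the summed level of the 6 genes was 1.5 times as high in the members of either library, against 1.80 in WT and 1.85 in the dKO-labelled library with all UMIs. A second check left each gene out of the score in turn. *Ccne2* then remained higher by a log2 ratio of 1.45 (1.22 to 1.68) in WT and 1.47 in the other library, *Cdc6* by 1.07 in both, *Ung* by 0.86 and 0.80, and *Ccne1* by 0.52 and 0.59. *Mcm6* was higher by 0.39 and 0.40, and *Mcm3* by 0.21 (0.16 to 0.27) and 0.22 (0.17 to 0.26). Each of the 6 genes was thus higher in cells chosen by the other 5, with the smallest log2 ratio for *Mcm3*. These ratios give the size of a difference, not how closely a gene follows the others, and the chosen cells differed by gene.

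**Figure D2:**
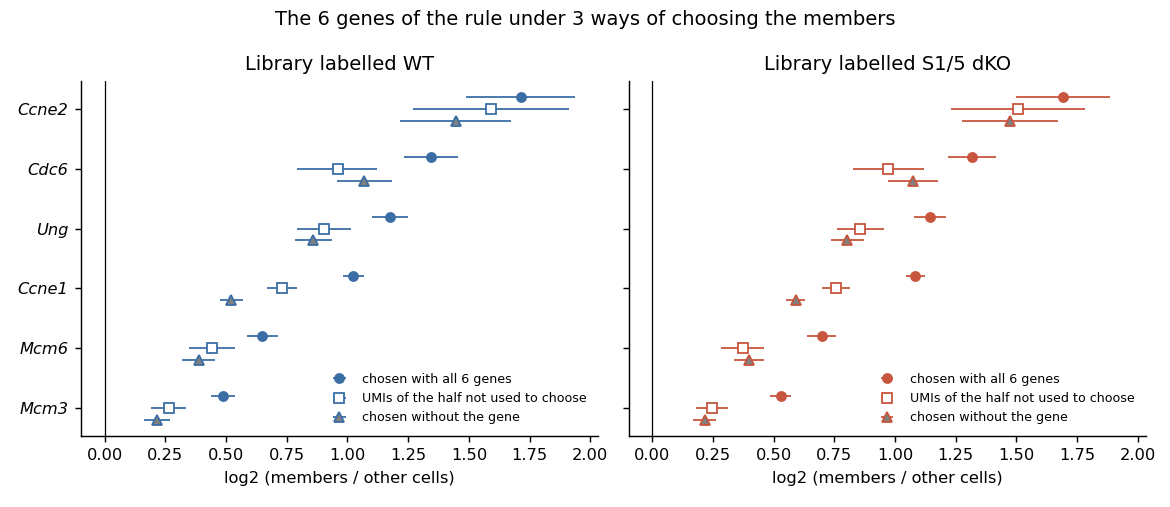
log2 ratio of members over other cells (x axis) for the 6 genes (y axis) in each library, with exact 95% counting intervals. Circles show cells chosen with all 6 genes, squares the UMIs not used to choose, and triangles cells chosen without the gene shown. *Ccne2* lies farthest from 0 and *Mcm3* nearest in all 3.

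In all, 7982 genes had at least 500 UMIs in each library. A gene was counted where the larger of its levels in members and other cells was at least 25% above the smaller, in the same direction in both libraries. By that measure 364 genes, the 6 included, were higher in the members (4.56% of those compared) and 100 were lower (1.3%). With so small a share lower, a count of 0 lower genes in a list below does not by itself set that list apart. Every one of these genes was read from the cells that the score divided, so the counts describe the members and test nothing. With ratios centred on the median gene, which was 0.04 in WT and 0.08 in the dKO-labelled library on the log2 scale, the counts were 213 and 157. With the score from 1 part of the UMIs and values from the other part they were 147 and 53, of which 120 and 40 were among the 364 and 100. The limit of 500 UMIs then applied to 1 part alone, so fewer genes were compared. The members so chosen also differed, with 74.7% in WT and 72.2% in the dKO-labelled library the same cells. The log2 ratios of the libraries had a Spearman rho of 0.74 over 7976 genes, a description over genes that share cells, depth and rule.

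**Figure D3:**
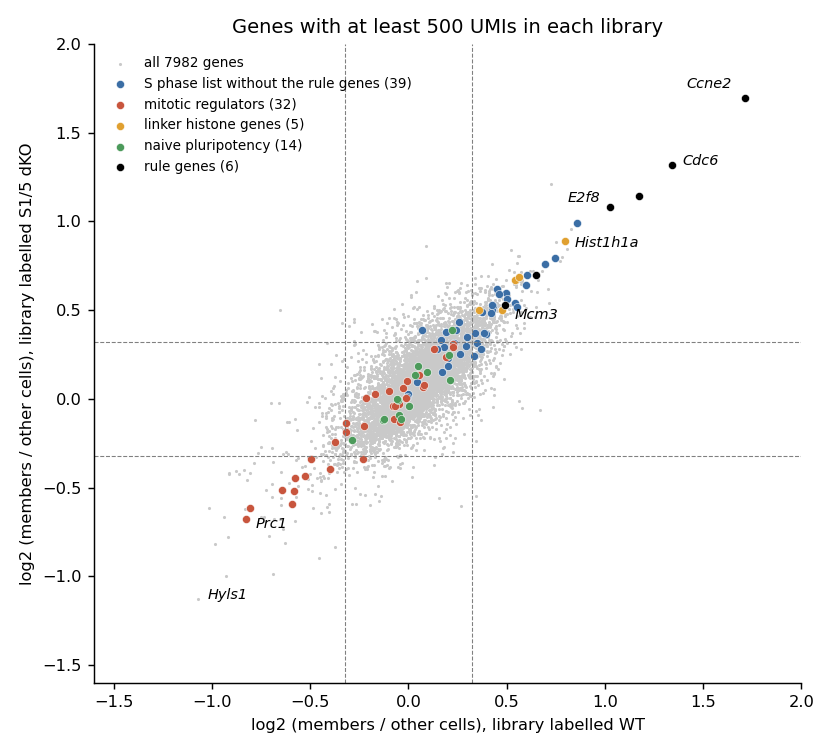
log2 ratio of members over other cells in WT (x axis) and in the dKO-labelled library (y axis), 1 point per gene with at least 500 UMIs in each library, with coloured gene lists and dashed lines at a difference of 25%. S phase genes lie to the upper right, mitotic regulators from the lower left to the middle, and naive pluripotency genes around 0. *Gm21761*, at 3.57 in WT, lies outside the axes.

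Genes of DNA replication stood higher in the members. Of the 39 genes of a widely used S phase list that the rule did not use, 19 were higher in both libraries and 0 lower, with a median log2 ratio of 0.35 in WT and 0.38 in the dKO-labelled library, against 0.04 and 0.08 over all genes with at least 500 UMIs. Medians of lists are over listed genes with at least 50 UMIs in each library, a limit at which the median of all 12307 genes was 0.05 and 0.09. The 24 genes of origin licensing and firing had 7 higher and 0 lower, with medians of 0.26 and 0.25. The WT median was 0.15 with cells thinned to 10000 UMIs and 0.14 against other cells that scanpy did not place in G2/M. Of those 249 other WT cells scanpy placed 239 in S, by a list that holds licensing genes such as *Clspn* and *Dtl*. *Clspn* encodes claspin, which links the replication fork to the checkpoint kinase CHK1. It was at 71.7 CPM (67.7 to 75.9) in WT members and 42.8 CPM in other WT cells, and at 72.5 (68.8 to 76.3) and 41.9 CPM in the dKO-labelled library. *Mcm10*, a factor that activates the loaded helicase, was at 64.8 and 41.0 CPM, then 74.0 and 46.5 CPM. *Dtl* encodes CDT2, the receptor through which the licensing factor CDT1 is degraded in S phase. Its levels were 52.4 and 34.6 CPM in WT and 58.2 and 35.9 CPM in the other library. *Orc1*, a subunit of the origin recognition complex, was at 50.6 and 35.1 CPM, then 52.2 and 35.9 CPM. *Wdhd1*, *Cdc45* and *Gins3* were the other 3. *Cdt1* itself had smaller log2 ratios of 0.16 and 0.25, its inhibitor *Gmnn* (geminin) 0.20 and 0.18, and *Gins4* −0.01 and 0.01.

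The MCM subunits outside the rule were unequal. *Mcm4* was at 153 and 114 CPM in WT and at 160 and 113 CPM in the dKO-labelled library and was the 1 of 4 past 25% in both. *Mcm2* had log2 ratios of 0.29 and 0.30, *Mcm5* of 0.17 and 0.33, and *Mcm7* of 0.09 and 0.12. *Mcm5* also differed between the libraries, at 249 CPM in WT members and 166 CPM in those of the other library (−0.59 as a log2 ratio, −0.65 to −0.52), and at 222 and 132 CPM in the other cells. It lies on chromosome 8 (75109569 to 75128439), the chromosome of the targeted gene *Smad1* (79338395 to 79399518).

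Of 25 regulators of the G1/S transition 24 reached 500 UMIs, of which 6 were higher in both libraries and 0 lower, with medians of 0.15 and 0.13. *E2f8* and *E2f7* encode the atypical E2F repressors, which are themselves E2F targets. By the smaller of the log2 ratios of both libraries, *E2f8* was the highest gene outside the rule. It was at 32.2 CPM (29.5 to 35.1) in WT members against 17.8 in other WT cells, and at 35.5 CPM (32.9 to 38.2) against 17.8 in the dKO-labelled library. *E2f7* was at 7.83 and 4.74 CPM, then 10.4 and 4.52 CPM. *Cdc25a*, the phosphatase that activates CDK2, was at 57.2 and 35.7 CPM, then 60.8 and 36.8 CPM, and *Myc*, a growth-promoting transcription factor, at 48.5 and 31.2 CPM, then 49.7 and 30.2 CPM. *E2f1* and *Skp2*, a ubiquitin ligase subunit that targets p27, completed the 6. The D-type cyclin *Ccnd1* had log2 ratios of 0.14 and 0.24, *Ccnd3* of 0.14 and 0.13, *Cdk2* of 0.30 and 0.38, *Cdk4* of −0.11 and −0.14, and *Mycn*, the paralog of *Myc*, of 0.04 and 0.00. Of 7 CDK inhibitors 5 had enough UMIs. Among these, *Cdkn1c* (p57) was higher, by 0.45 and 0.43, and *Cdkn2d* (p19) lower, by −0.49 in both.

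Some genes of DNA copying and nucleotide supply were higher. Of 30 genes of the replication fork 5 were higher and 0 lower, with medians of 0.10 and 0.17. These were *Atad5*, *Pcna*, *Dna2*, *Rpa2* and *Fen1*. *Atad5*, which unloads the sliding clamp PCNA from DNA, was at 34.5 and 23.1 CPM, then 34.5 and 21.7 CPM, and *Pcna* itself at 62.6 and 46.4 CPM, then 64.6 and 44.9 CPM. The polymerase subunit genes *Pold2* and *Pole3* had log2 ratios between −0.06 and −0.01. Of 16 genes of nucleotide supply *Rrm2* and *Dck* were higher and 0 lower, with medians of 0.14 and 0.20. *Rrm2* encodes the cell cycle-regulated subunit of ribonucleotide reductase and was at 246 and 163 CPM, then 265 and 170 CPM, whereas *Rrm1*, the other subunit, had log2 ratios of 0.18 and 0.29 and *Tyms* (thymidylate synthase) 0.00 and 0.03.

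Chromatin and repair genes were also among the higher ones. For chromatin assembly and maintenance of DNA methylation 5 of 13 genes were higher and 0 lower, with medians of 0.30 and 0.32. *Uhrf1*, which recruits DNMT1 to newly copied DNA, was at 111 CPM (106 to 116) in WT members and 68.5 in other WT cells, and at 118 CPM (113 to 123) and 69.4 in the dKO-labelled library, while *Dnmt1* had log2 ratios of 0.02 and 0.22. *Slbp*, whose product binds histone mRNA, was at 216 and 148 CPM, then 237 and 163 CPM. *Chaf1a*, *Chaf1b* and *Hells* were the other 3. Of 21 genes of DNA repair and checkpoint 6 were higher and 0 lower, with medians of 0.26 and 0.32. *Brca1* was at 42.2 and 28.4 CPM, then 43.2 and 27.6 CPM, and *Exo1* at 50.7 and 37.1 CPM, then 59.0 and 38.4 CPM. The mismatch repair gene *Msh6* had log2 ratios of 0.40 and 0.55.

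Linker histone genes, whose mRNA is made in S phase, were higher in the 5 of 6 cases with enough UMIs. *Hist1h1a* was at 116 CPM (111 to 121) in WT members and 66.6 in other WT cells, and at 118 CPM (113 to 123) and 63.6 in the dKO-labelled library. Against other cells that scanpy did not place in G2/M, its log2 ratio was −0.051 in WT and 0.038 in the dKO-labelled library, in place of 0.80 and 0.89. Those other cells were 249 in WT, of which 239 were placed in S, and 306 in the dKO-labelled library, of which 295 were. *Hist1h1b* was at 711 and 489 CPM, then 823 and 517 CPM, and *Hist1h1d*, *Hist1h1c* and *Hist1h1e* had log2 ratios between 0.36 and 0.69. Of 61 core histone genes 11 had enough UMIs, of which *Hist1h4i* alone was past 25% in both libraries, and *Hist1h2ap* had log2 ratios of 0.32 and 0.40. The mRNAs of replication-dependent histones lack a poly(A) tail, and the kit captures poly(A).

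Several of the highest genes belonged to no list of replication or cell cycle genes. *Nsd2*, which encodes a histone H3 lysine 36 methyltransferase, was at 16.7 and 9.44 CPM, then 20.6 and 10.6 CPM. *Fam111a*, a protease gene linked to replication, was at 18.9 and 10.8 CPM, then 18.3 and 10.2 CPM, and *Ncapg2*, a condensin II subunit, at 19.9 and 11.6 CPM in WT, with a log2 ratio of 0.80 in the other library. *Map7d1* had log2 ratios of 0.75 and 0.88, and *Gm14401*, a gene of a repeated family on chromosome 2 whose copies can share reads, 0.64 and 0.70. Of 13 mitochondrial genes 2 were higher, among them *mt-Nd6* with 0.77 in both libraries. Of 3 ribosomal RNA-related genes with enough UMIs 1 was higher, *AY036118* with 0.71 and 0.62. Both were more concentrated in droplets without a cell, *mt-Nd6* at 63.5 and 65.9 CPM and *AY036118* at 249 and 213 CPM, than in the members, where *mt-Nd6* was at 9.63 and 11 CPM and *AY036118* at 26.1 and 21.6 CPM. The part of free RNA in their ratios was not tested.

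Of the 100 genes lower in the members, 9 were in the list of mitotic regulators and 12 in the G2/M phase list, which share genes. Of 32 mitotic regulators these 9 were lower in both libraries and 0 higher, with median log2 ratios of −0.14 in WT and −0.08 in the dKO-labelled library. *Prc1*, which bundles the microtubules of the central spindle, was at 64.3 CPM (60.5 to 68.2) in WT members and 114 in other WT cells, and at 74.7 CPM (71.0 to 78.6) and 120 in the dKO-labelled library. *Aurkb*, a kinase of chromosome segregation, was at 43.7 and 76.4 CPM in WT, with a log2 ratio of −0.62 in the other library. *Ube2c*, the ubiquitin-conjugating enzyme of the anaphase-promoting complex, was at 518 and 809 CPM, then 614 and 877 CPM, and *Cdk1* at 223 and 335 CPM, then 242 and 346 CPM. *Aurka*, *Ccnb1*, *Top2a*, *Cenpf* and *Cenpe* were the other 5. Not every mitotic gene was lower. *Bub1* had log2 ratios of 0.23 and 0.31, *Bub1b* of 0.23 and 0.29, *Mki67* of 0.13 and 0.28, *Cdc20* of 0.07 in both and *Ccnb2* of −0.08 and −0.11. *Ccna2*, whose cyclin acts in S and G2, had 0.06 and 0.13.

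Of the 10 lowest genes, *Hyls1*, a centriole and cilium gene, was at 5.30 CPM (4.25 to 6.53) in WT members and 11.1 in other WT cells, and at 4.97 CPM (4.05 to 6.05) and 10.9 in the dKO-labelled library. *Kpna2*, an importin subunit with high mRNA in G2, was at 32.5 and 61.4 CPM, then 35.1 and 60.1 CPM. *Fam83d*, a spindle protein gene, had log2 ratios of −0.98 and −0.82, and *Cenpl*, a centromere protein gene, −0.69 and −0.98. *Arhgef39* was at 3.01 and 5.74 CPM, then 3.08 and 6.16 CPM. *Dcxr* and *Gpx3*, which encode metabolic and antioxidant enzymes, had −0.71 and −0.77, and −0.68 and −0.68, and *Mup6*, of a family of near-identical genes whose reads could be split in counting, had −0.94 and −0.66. The median of the mitotic regulators and the count of lower genes changed when G2/M cells were left out of the others. Against other cells that Seurat did not place in G2/M, the median of the mitotic regulators was 0.25 in WT and 0.35 in the dKO-labelled library, and 19 genes were lower in place of 100. That comparison was chosen after the values were seen and removes cells by mitotic genes.

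Cells high in a mitotic score (the top 20% by *Ube2c*, *Cdk1*, *Ccnb1*, *Ccnb2*, *Plk1* and *Cdc20*) made up 5.71% of the members in WT (3.73 to 8.31) and 23.5% of the other cells, and 6.69% (4.78 to 9.07) and 23.3% in the dKO-labelled library. The median member held 36.1 UMIs of mitotic regulators per 10000 in WT and 39.5 in the other library, against 41.7 and 45.0 in the other cells. For the 6 genes of the mitotic score these medians were 13.9 and 15.0 in the members and 17.0 and 18.6 in the other cells.

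Phase calls, made at 10000 UMIs per cell from 39 S phase genes outside the rule and 54 G2/M genes, depended on the caller. Scanpy placed 36.3% of WT members (31.8 to 41.0) and 13.6% of other WT cells in S, and 34.5% (30.6 to 38.6) and 13.0% (11.6 to 14.4) in the dKO-labelled library, and nearly all remaining cells in G2/M. Without thinning the members' shares were 45.2% and 42.1%, and the other cells' 16.4% and 12.4%. With the score from 1 part of the UMIs and phases from the other part, the members' shares were 22.8% and 23.6%. These calls used all UMIs of that part, and the other cells' shares are not given. They therefore show no contrast with other cells. With Seurat the shares in S were 41.3% of WT members and 13.4% of other WT cells, and 46.7% and 13.8% in the other library. By Seurat 31.7% of WT members (27.4 to 36.3) and 36.0% of other WT cells (33.8 to 38.3) were in G1. In the dKO-labelled library these G1 shares were 23.1% (19.7 to 26.8) and 29.4% (27.5 to 31.3). Seurat placed 26.9% and 30.3% of the members in G2/M, against 50.6% and 56.9% of other cells. Free RNA holds genes of both lists, and its part in these calls was not tested.

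**Figure D4:**
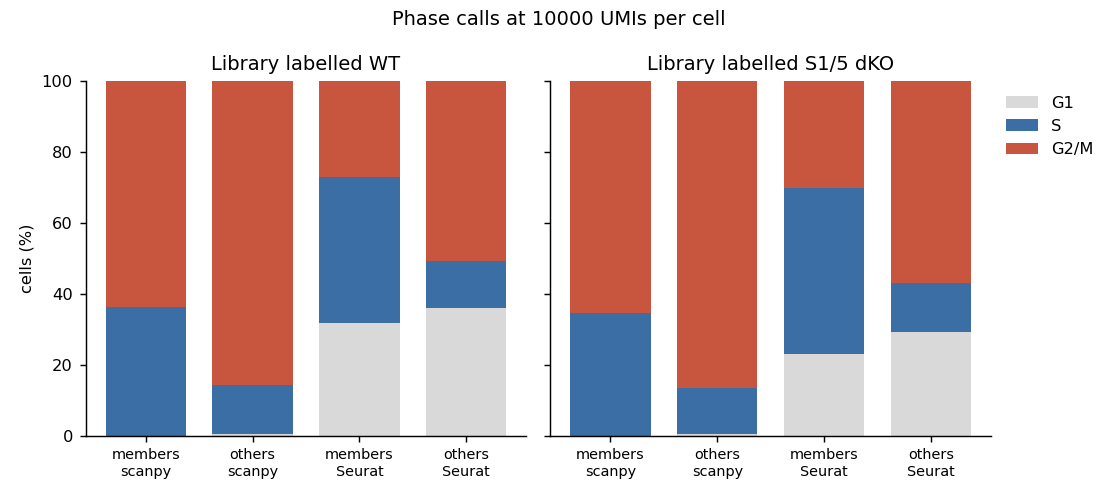
Share of members and other cells (y axis, %) placed in G1, S and G2/M by scanpy and by Seurat in each library. Members had the larger S share with both callers, and G1 was nearly empty with scanpy.

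The members were also divided by phase. The values for Seurat's G1, S and G2/M members are given in that order. In WT, *Ccne1* was at 368, 390 and 357 CPM, *Mcm3* at 253, 261 and 258 CPM, and *Mcm6* at 159, 158 and 160 CPM. *Ccne2* was at 14.7, 19.6 and 15.4 CPM in WT and at 15.3, 22.1 and 17.1 CPM in the dKO-labelled library. *Cdc6* was at 56.2, 66.9 and 60.5 CPM, then 53.9 (47.4 to 61.1), 70.8 (65.4 to 76.5) and 62.4 CPM. The choice of cells by the sum of the rule genes holds their levels near each other, so these values are no finding. *Hist1h1b*, which no phase list holds, was at 724, 941 and 373 CPM in WT and at 905, 1082 and 407 CPM in the dKO-labelled library. *Hist1h1a* was at 115, 155 and 61.3 CPM in WT and at 115, 160 and 61.7 CPM in the other library. *Prc1*, also in no phase list, was at 44.5, 44.9 and 113 CPM, then 49.7, 52.1 and 123 CPM. *Myc* was at 49.8, 50.5 and 44.2 CPM in WT. Members placed in G2/M held less mRNA of both linker histone genes than the other members, and more *Prc1*.

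Along the whole score the lists moved differently. Over 10 equal groups of cells by score, the summed share of the S phase list without the rule genes ran from 0.801 of the library mean in the lowest group to 1.23 in the highest in WT, and from 0.793 to 1.28 in the dKO-labelled library, with each group above the one before. The mitotic score genes stayed between 0.99 and 1.13 of the mean over the first 7 groups in WT and were at 0.743 in the highest group, and were at 0.794 there in the other library. Linker histone genes were lowest in the middle, at 0.834 in the fifth WT group and 0.792 in the third group of the other library, and reached 1.43 and 1.56 in the highest. *E2f8* ran from 11.3 to 35.5 CPM in WT and from 10.4 to 42.1 CPM in the dKO-labelled library. *Ccna2* ran from 128 to 148 CPM and from 128 to 151 CPM. The median depth was 37583 and 33950 UMIs in the lowest and highest WT groups and 43639.5 in the fourth, so depth moved with the score as well and its part was not tested by these groups.

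**Figure D5:**
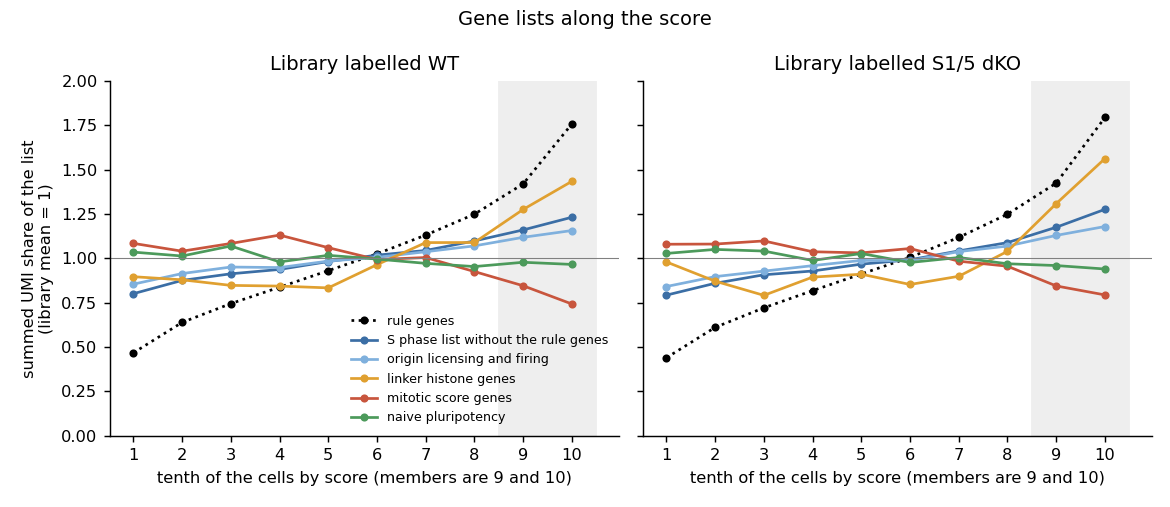
Summed UMI share of gene lists relative to the library mean (y axis) in 10 equal groups of cells ordered by score (x axis, 1 lowest, shaded 9 and 10 are the members). S phase genes climb along the whole score, linker histone genes climb near its top and mitotic score genes drop there.

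Other programs of these cells were unequal. Of 15 naive pluripotency genes 14 had enough UMIs, of which 0 were past 25% in both libraries in either direction, with medians of 0.0040 and −0.0020. *Nanog* was at 141 and 138 CPM in WT and at 153 and 140 CPM in the dKO-labelled library, and *Klf2* had the lowest log2 ratios, −0.29 and −0.23. Of 79 ribosomal protein genes 78 had enough UMIs and 0 were past 25%, with medians of −0.06 and −0.09, and of 14 p53 targets 12 had enough UMIs and 0 were past 25%. Over all genes compared only 4.56% were higher and 1.3% lower. A count of 0 among 14 naive pluripotency genes or 12 p53 targets therefore does not set these lists apart. *Dnmt3a*, a de novo DNA methyltransferase raised in formative cells, was higher by 0.44 and 0.35, *Smad7*, an inhibitor of TGF-beta and BMP signalling, by 0.33 and 0.40, and *Hspa5*, the chaperone BiP, by 0.45 and 0.50, each the 1 gene of its list past 25% upward, where 4 of 11 formative, 7 of 11 BMP-SMAD and 12 of 12 endoplasmic reticulum stress genes had enough UMIs. The median of the formative list was 0.21 and 0.39, over 8 genes. *Tagln* and *Fgfbp1*, which mark a small group of *Sp5*-positive cells, were lower, *Tagln* at 11.7 and 22.0 CPM, then 7.96 and 10.7 CPM, and *Fgfbp1* at 17.0 and 26.5 CPM, then 17.6 and 29.3 CPM. *Sp5* itself had log2 ratios of −0.36 in WT and −0.02 in the dKO-labelled library. The median over the 3 genes of that list was −0.64 and −0.42. Among the 5 of 9 immediate early genes with enough UMIs *Jun* was lower and *Dusp1* higher.

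Genes of 2-cell-like cells rested on single cells. In WT members *Zscan4d* had 85 UMIs, all in 1 cell, and *Gm21761* had 625 UMIs, of which 624 lay in 1 cell. *Gm21761* in the members of the dKO-labelled library had 189 UMIs, 186 of them in 1 cell. One member of each library held at least 10 UMIs of the list apart from *Eif1a*, against 3 other WT cells and 4 other cells in the dKO-labelled library.

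Between the libraries, cells at or above the WT limit of 8.36 made up 25.3% (23.7 to 27.0) of the dKO-labelled library, against 20% in WT by the rule. This share was 20.5% with the 6 genes weighted equally and 22.5% without *Ccne1*, so it depended on the weights. Within the members the median log2 ratio of the dKO-labelled library over WT was 0.03 over 7723 genes with at least 100 UMIs in the members of each, and 0.09 over the 24 licensing and firing genes. The 6 rule genes lay between 0.02 and 0.17.

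In all, 10 genes were at least 2-fold apart between the members of the libraries (0.129%), 8 higher and 2 lower in the dKO-labelled library, and 8 of the 10 were at least 2-fold apart in the same direction in the other cells. *Mest*, an imprinted gene, was at 13.8 CPM in WT members and 104 CPM in those of the other library, which is 2.91 on the log2 scale (2.71 to 3.11) against 3.08 in the other cells. *Id2*, a BMP target, was at 54.0 and 21.6 CPM, a log2 ratio of −1.32 against −1.88. *Id1*, the best known BMP target, was just under 2-fold, at 344 and 175 CPM (−0.98, −1.04 to −0.92), and at 319 and 157 CPM in the other cells (−1.02). *Lefty1*, *Peg10*, *Platr3*, *Pla2g1b*, *Aass*, *Slc9a3r2* and *Impact* were the other genes higher by 2-fold and *Gm21761* the other lower one, and these were named after their values were seen.

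By the rule for the largest unequal differences, *Nes* (nestin, an intermediate filament) was at 6.08 and 9.10 CPM in the members of WT and the dKO-labelled library and at 5.72 and 5.00 CPM in the other cells, and *Xpnpep3* at 6.32 and 9.10, and at 7.67 and 6.66 CPM. *Loxl2* was at 6.80 and 6.86 CPM in the members and at 3.95 and 7.95 CPM in the other cells. These genes had between 101 and 183 UMIs in the members of a library and were the extremes among 7723, so their counting intervals overstate how firmly they are set apart. *E2f7* was the list gene of the cell cycle with the widest such difference, 0.49 (0.11 to 0.86), since its log2 ratio of members over other cells was 0.72 in WT and 1.21 in the dKO-labelled library.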

How the data were processed

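Single-cell RNA-seq of 1 WT and 1 library labelled S1/5 dKO was analysed. According to the labels, reads were processed with Cell Ranger 3.0.2 on mm10, and the authors deposited raw UMI counts per gene and barcode, not normalized, with every barcode of the kit listed. All else was computed from these counts.

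Cells were kept at 1000 genes, 5% mitochondrial UMIs (the authors' filters) and 10000 UMIs. The cells used held 95749252 UMIs in WT and 108678040 in the other library. Members were the top 20% by score. UMIs were summed over members and over other cells, divided by their totals (CPM), and compared as log2 ratios with exact conditional binomial intervals. CPM has exact Poisson and shares exact binomial (Clopper-Pearson) intervals. The interval of a difference of log2 ratios is a normal approximation. Phases were called with scanpy 1.11.5 and Seurat 5.3.0 on R 4.3.3 after thinning. Sums and intervals were computed with numpy 2.4.6, pandas 2.3.3 and scipy 1.17.1 on Python 3.11.15. Positions are those of GENCODE for GRCm38, and sequences are those of RefSeq for GRCm38.p6.

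Named genes were the 6 rule genes, listed genes, *Smad1*, *Smad5*, the 15 highest and 10 lowest by the smaller of both log2 ratios, and the 3 largest differences between libraries in each direction. A few values of named genes are not reported here. Members and lists were chosen with earlier results of these data known. On simulated counts for members over other cells (7980 genes), 98 of 98 genes raised and 95 of 98 lowered by 1.5-fold were found. Of 7784 unchanged genes 0 were counted. The simulation held counting error only, with no choice of cells by a score and no variation between cells. It checks the computation and gives no rate of false calls for the genes counted here. The tricycle package named in the paper's methods was not used here. Alternatives covered the choice of members, the cells, the cells compared with, scaling and limits.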

Additional observations from a re-analysis of the deposited data

Results flagged for a closer look

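Between members and other cells, 3 genes were at least 25% apart in opposite directions in the 2 libraries, with every library counted once and the difference not tested. *Slc11a1*, a metal ion transporter gene named after its values were seen, had a log2 ratio of −0.65 in WT (81 UMIs in the members) and 0.50 in the dKO-labelled library (360 UMIs). *Med12*, a subunit of the Mediator kinase module, had −0.34 (108 UMIs) and 0.43 (180 UMIs). *Gm10131* had 0.34 (164 UMIs) and −0.55 (100 UMIs). They are 3 of 7982 genes compared, each with few UMIs in the members.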

How the results depend on the processing

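With 1 library per condition no replicate could be left out. No paired analysis was possible because each group had 1 library. Of 912 values of named genes under the alternatives 899 kept the direction of the reported value. The counts of genes higher and lower (364 and 100) became 37 and 19 with cells thinned to 10000 UMIs. With the UMIs not used for the score they were 147 and 53. In both of these settings fewer genes reach 500 UMIs. When thinned, 34 of the 364 and 8 of the 100 genes also reversed direction in 1 or both libraries. With the UMIs not used for the score 3 and 2 did. The counts were 213 and 157 after centring, 778 and 315 at 50 UMIs, and 25 and 19 at 1.5-fold. Against other cells not in G2/M they were 209 and 14 by scanpy, and 578 and 19 by Seurat. There 16 of the 364 and 43 of the 100 genes reversed by scanpy, and 1 and 21 by Seurat. The lower count was 66 for the top 30% and 45 without *Ccne1*. The causes of other changes were not tested.

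Against other cells not in G2/M by scanpy the mitotic median was 0.42 in WT and 0.45 in the dKO-labelled library, and by Seurat 0.25 and 0.35. Scanpy left 249 such cells in WT, 239 of them placed in S, and 306 in the other library, 295 of them placed in S. By scanpy *Hist1h1a* (−0.051), *Hyls1* (0.018) and *Cenpl* (0.66) reversed in WT, *Kpna2* (0.26) in the other library, and *Arhgef39* (0.54 and 0.65), *Fam83d* (0.52 and 0.43) and *Prc1* (0.33 and 0.34) in both; by Seurat *Fam83d* (0.12) and *Prc1* (0.091) reversed in the dKO-labelled library. *Gm14401* was −0.13 in WT when thinned. The licensing median in WT was 0.15 when thinned and 0.14 against other cells not in G2/M, and between the libraries 0.12 with the UMIs not used for the score.

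The share of members in S was 42.0% and 39.1% for the top 10%, 29.2% (dKO-labelled library) when the score was thinned, 22.8% and 23.6% with the UMIs not used for the score, 45.2% and 42.1% without thinning and 41.3% and 46.7% with Seurat. The share at or above the WT limit was 20.5% with equal weights and 22.5% without *Ccne1*. *Id1* between the libraries was −1.08 (top 10%), −1.15 (thinned), −0.92 (equal weights), −1.07 (without *Ung*), −1.04 (without *Mcm3*) and −1.05 (per-cell means), and *Mest* 3.22 (top 10%), 3.45 (UMIs not used for the score) and 3.31 (without *Cdc6*).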
